A study of Mus musculus with 16 samples.

Results

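Brains of newborn mice that lack connexin 32 were compared with brains of newborn wild-type mice on cDNA arrays read in 2 colours. The comparison uses 8 of the 16 samples of the series, taken by their titles: 4 labelled Connexin32 null and 4 labelled wildtype. Per the labels, the wild-type mice were C57BL/6j and the Cx32 null mice C57BL, and every sample came from the brains of neonates. The titles of the Cx32 null samples alone leave out the word neonatal. Since the strain labels differ with genotype, strain and loss of connexin 32 cannot be told apart. No label gives an age in days or a sex, says how Gjb1, the gene of connexin 32, was disrupted, or says whether a sample was 1 animal or a pool. No wild-type littermates are named. The other samples are 4 from Cx43 heterozygous and 4 from Cx43 null neonates of the same series. They enter the fit to give the spread between arrays, and they are set against Cx32 null brain at the end.

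Each array carried cDNA of 1 brain sample beside cDNA of a single reference pool of adult tissues that held brain, heart, kidney, liver, lung and others. Values are given as log2 ratios, brain against pool, with the array's median taken off, and a change is the Cx32 null group mean less the wild-type group mean. Neither the base of the logarithm nor the channel on top of the ratio is stated in the labels. Log2 was assumed, and brain over reference is the likely direction, because neuron genes were high and reference tissue genes low on all 8 arrays. The median log2 ratio of 23 neuron genes was 2.07 to 3.03 on the wild-type and 2.12 to 2.30 on the Cx32 null arrays. The median of 25 genes of liver, kidney, heart and lung was -3.46 to -2.06 and -5.13 to -4.20. A higher ratio is a larger share of RNA in the brain sample and cannot be read as a level between genes.

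Connexins form gap junctions, channels through which neighbouring cells pass ions, metabolites and second messengers such as cyclic AMP and inositol trisphosphate. Connexin 32 is carried by oligodendrocytes, which make the myelin of the brain, and by Schwann cells, which make that of the nerves, and its loss in humans gives a form of Charcot-Marie-Tooth neuropathy. Connexin 43, encoded by Gja1, joins astrocytes and their radial glia precursors. In a newborn mouse brain few oligodendrocytes have matured and myelin has hardly begun to form.

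Between 22001 and 24747 of 28704 spots had a value on the wild-type arrays and between 21010 and 23144 on the Cx32 null arrays. Wild-type replicate 1 stood apart. Its correlation over spots with the median of the other 15 arrays was 0.637, and that of the other 7 arrays compared here was 0.83 to 0.937. Its interquartile range was 1.874 log2 units, and that of the other 7 was 1.025 to 1.393. Among pairs of Cx32 null arrays the correlation was 0.865 to 0.935. It was 0.788 to 0.922 between Cx32 null arrays and arrays of the 2 Cx43 lines, but 0.532 to 0.788 between Cx32 null and wild-type arrays, and 0.729 to 0.788 when wild-type replicate 1 was left out. The median SD of a transcript was 0.208 in Cx32 null and 0.393 in wild-type brain, and 0.257 over the other 3 wild-type arrays. Many results are therefore given with and without wild-type replicate 1. Those given once are over all arrays and can change without it. In 22 of 312 blocks of 92 consecutive spots, some arrays were out of step with the others, and genes with a spot there were kept out of the lists of largest changes.

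Of 14292 transcripts tested, 3908 passed at a limma adjusted p under 0.05, or 27.3%: 1871 were higher in Cx32 null brain (13.1%) and 2037 were lower (14.3%). With wild-type replicate 1 left out, 1546 were higher (10.8%) and 1776 lower (12.4%), or 23.2% in all. When the 8 arrays compared were fitted alone, without the spread of the Cx43 arrays, 2256 passed. The values of the groups did not overlap for 1889 transcripts that were higher (13.2%) and 2091 that were lower (14.6%), together 27.8%. These shares are the background against which each gene list below is read. With values as deposited, the higher share of the calls was 57.2% in place of 47.9%. Since no label says that samples came from separate animals, a p-value here speaks for the variation among these arrays alone.

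The changes depended on where a transcript stood on the scale of the arrays. Transcripts were put into 10 bands of near equal size by their mean ratio on the 8 Cx43 arrays. These arrays are in neither group compared, but they enter the filter of spots and the spread used in the test. Except for Cx43 null replicate 1, they also correlated more with the Cx32 null than with the wild-type arrays. In the lowest band, from -6.50 to -1.01, where genes of the reference tissues lie, 431 of 1430 transcripts fell (30.1%) and 44 rose (3.1%), and the median change was -0.47. In band 3, from -0.62 to -0.40, the order was turned, with 368 of 1429 higher (25.8%) and 122 lower (8.5%), and a median change of 0.22. In the highest band, where brain genes lie, 215 of 1430 fell (15%) and 142 rose (9.9%). Leaving out wild-type replicate 1 gave medians of these 3 bands of -0.34, 0.19 and -0.01. In the lowest band the median ratio was -0.96, -1.29, -1.48 and -1.30 on wild-type replicates 1 to 4 and -1.37, -1.54, -1.48 and -1.86 on the Cx32 null arrays. Whether the scale of the arrays has a part in the calls was not tested.

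**Figure D1:**
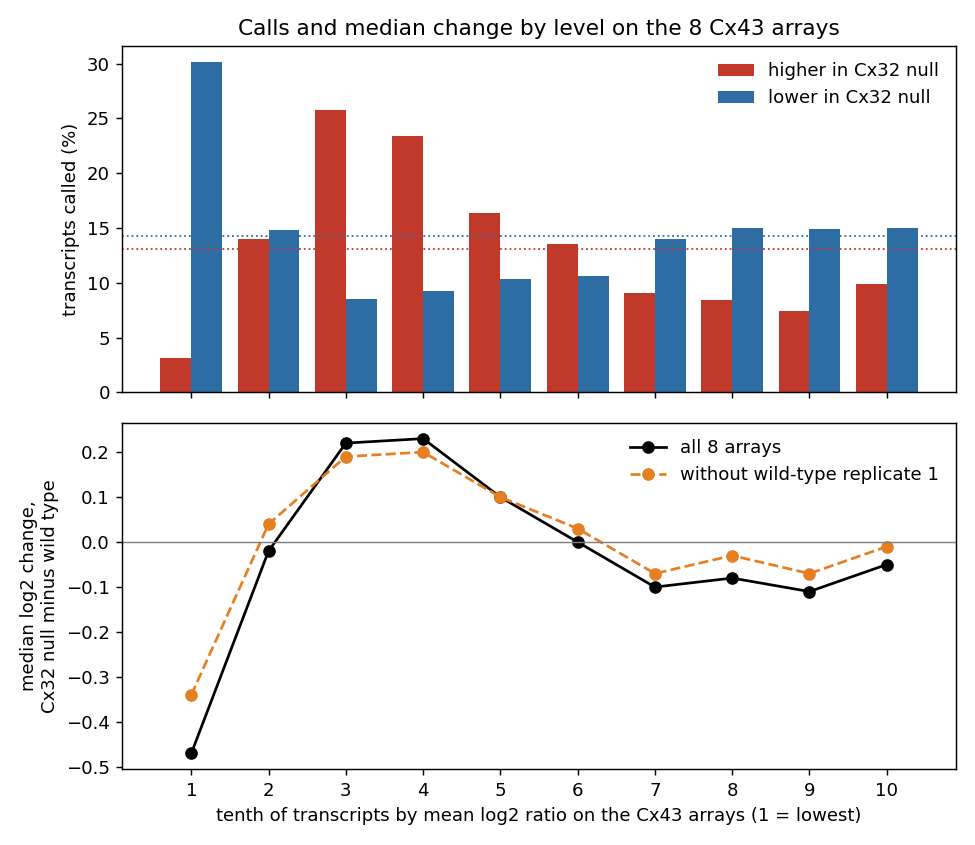
Above, the percentage of transcripts called higher (red) or lower (blue) in Cx32 null brain in each of 10 bands of the log2 ratio on the 8 Cx43 arrays, numbered from the lowest; dotted lines mark the shares over all transcripts. Below, the median log2 change per band with all 8 arrays and without wild-type replicate 1. Falls are concentrated in band 1 (30.1%) and rises in band 3 (25.8%).

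Connexin 32 itself could not be followed, since no spot is named Gjb1, and so the genotype of the arrays could not be checked on the deleted gene. Of 23 connexin and pannexin genes, 3 were measured. Gja1, the gene of connexin 43, had log2 ratios of 2.47, 1.13, 1.48 and 1.17 in wild-type and 0.13, 0.10, -0.07 and 0.27 in Cx32 null brain. All 4 Cx32 null arrays lay below all wild-type arrays, and the 4 agreed closely. The change was -1.46 ± 0.37 (SE, n = 4 and 4, adjusted p = 0.00986), and -1.15 without wild-type replicate 1 (adjusted p = 0.0298). Panx1, the pannexin that forms ATP release channels, had ratios of 2.91, 1.63, 1.83 and 1.61 in wild-type and 2.63, 2.63, 2.66 and 2.13 in Cx32 null brain. Wild-type replicate 1 alone lay above the Cx32 null arrays and the other 3 below them. The change was 0.52 (95% interval -0.18 to 1.22, adjusted p = 0.246), and 0.83 without that array (adjusted p = 0.0591). Gjb5, the gene of a connexin of skin, differed by 0.46 (interval -0.04 to 0.97, adjusted p = 0.155).

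Among 23 measured genes of proteins that bind, phosphorylate or degrade connexins, 3 were higher and 4 were lower, or 30.4% in all, near the share over all transcripts. Ctnnb1, the gene of beta-catenin, which links junctions to the cytoskeleton and carries Wnt signals, had ratios of 3.84, 3.23, 3.61 and 3.15 in wild-type and 1.75, 1.79, 1.46 and 1.89 in Cx32 null brain. The groups were far apart and the change was -1.73 ± 0.27 (adjusted p = 0.000786). Calm3, a calmodulin gene, rose by 0.88 ± 0.22 (adjusted p = 0.00797), and Prkce, a protein kinase C that phosphorylates connexin 43, changed by -0.71 ± 0.19 (adjusted p = 0.0131). These 3 also passed when wild-type replicate 1 was left out, at adjusted p of 0.00188, 0.0161 and 0.0279. The list as a whole then had 1 higher and 3 lower. Hgs (0.67), Tubb5 (0.52) and Ubqln4 (-0.99) had also passed over all arrays. They were lost without wild-type replicate 1, at adjusted p of 0.0758, 0.0919 and 0.0674. Ctnnb1 was lost (-1.0) where a spot needed all 4 values in each group, and Prkce under quantile scaling (-0.29) and cyclic loess (-0.46).

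Genes of the cells that carry connexin 32 gave few calls. Of 40 listed genes of oligodendrocytes and myelin, 10 were measured, with 1 higher, 1 lower and a median change of -0.17 (0.01 without wild-type replicate 1). Lingo1, a receptor of axons and oligodendrocyte precursors that holds back myelination, had ratios of -0.96, -0.17, 0.66 and 0.56 in wild-type and 1.47, 0.93, 0.84 and 1.24 in Cx32 null brain. Its groups did not overlap, although Cx32 null replicate 3 lay close to wild-type replicate 3. The change was 1.10 ± 0.28 (adjusted p = 0.0104), and 0.77 without wild-type replicate 1 (adjusted p = 0.0217). It missed the threshold when the 8 arrays were fitted alone (adjusted p = 0.0512). Mbp, the myelin basic protein gene, had ratios of -0.94, -2.11, -2.14 and -1.72 in wild-type and -2.21, -2.48, -2.36 and -2.77 in Cx32 null brain. Wild-type replicate 1 lay well above the rest, and the gap between the groups was narrow without it. The change of -0.72 ± 0.25 (adjusted p = 0.0418) became -0.46 without that array (adjusted p = 0.123). It was also lost without wild-type replicate 4 (-0.72) and without Cx32 null replicate 2 (-0.72), 3 (-0.76) or 4 (-0.62), and under other settings, among them quantile scaling (-0.42) and cyclic loess (-0.15).

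The other 8 members did not pass. Pdgfra, the receptor that marks oligodendrocyte precursors, differed by 0.15 ± 0.29. The transcription factor genes Sox8 and Nkx6-2 differed by 0.54 and 0.38, and Sox8 passed without wild-type replicate 1 (0.67, adjusted p = 0.0278) or without replicate 4 (0.65). Car2, a carbonic anhydrase of oligodendrocytes, differed by -0.74 and passed in 2 of 8 such fits, those without wild-type replicate 3 (-0.95) or Cx32 null replicate 1 (-1.06). Tspan2, Trf, Cryab and Qdpr lay between -0.44 and -0.09. Of 18 genes of Schwann cells, 3 were measured and 0 passed over all arrays: Erbb3, a neuregulin receptor, at -0.47, Pou3f1 at 0.27 and the neurotrophin receptor gene Ngfr at -0.05. Erbb3 passed in 1 of 8 fits, that without Cx32 null replicate 1 (-0.74), whose ratio of -0.82 lay above the other 3 at -2.21 to -1.73.

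Of 23 measured genes of astrocytes and radial glia, 9 fell (39.1%) and 0 rose, and the median change was -0.61. With wild-type replicate 1 left out, 7 fell, 0 rose and the median was -0.22. The median of the list on single arrays was 0.37 to 1.17 in wild-type and -0.10 to 0.13 in Cx32 null brain. Ndrg2, a gene of mature astrocytes, had ratios of 1.02, 1.14, 0.77 and 0.35 in wild-type and -0.86, -0.79, -1.20 and -1.48 in Cx32 null brain. Every Cx32 null array was below 0 and every wild-type array above it. The change was -1.90 ± 0.31 (adjusted p = 0.000964), and -1.84 without wild-type replicate 1. Gja1, given above, is the member with the next largest fall. Id3 changed by -1.23 ± 0.41 (adjusted p = 0.0345) and was lost without wild-type replicate 1 (-0.66, adjusted p = 0.0759). It passed in 2 of 8 fits that leave out 1 array. Further down, and chosen after the values were seen, Sparc and Sparcl1, which encode matrix proteins secreted by astrocytes, fell by 1.15 and 1.19, and Nfib, a transcription factor gene of gliogenesis, fell by 1.04. The glutamate transporter gene Slc1a3 did not pass (-0.83, adjusted p = 0.147), with a ratio of 4.09 on wild-type replicate 1 and 1.10 to 1.66 on the other 7 arrays. The precursor gene Fabp7 (0.35) and Vim (0.15) did not pass either. In whole brain, fewer cells of a type and less RNA per cell cannot be told apart.

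Among named genes that passed without overlap between the groups and had no spot in a block out of step, the 15 with the largest rises lay between 1.63 and 2.87. Smarcc2, which encodes a core member of the BAF remodeller, had ratios of -0.64, -0.14, -0.35 and -0.03 in wild-type and 1.23, 2.43, 2.16 and 3.27 in Cx32 null brain. Nexmif, an X-linked gene of neurite extension and neuron migration, had ratios of 0.57, 1.10, 1.55 and 1.07 in wild-type and 2.77, 3.49 and 2.90 on the 3 Cx32 null arrays with a value. Add2, which encodes an adducin of the membrane skeleton under the neuronal surface, had ratios of -0.77, 0.09, 0.01 and -0.41 in wild-type and 1.57, 1.98, 1.47 and 2.66 in Cx32 null brain. In all 3 genes the lowest Cx32 null array lay more than a log2 unit above the highest wild-type array. The changes were 2.56 ± 0.51 for Smarcc2, 1.98 ± 0.29 for Nexmif and 2.19 ± 0.34 for Add2 (adjusted p = 0.00255, 0.000714 and 0.000714).

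The other large rises were C030034L19Rik (2.87 ± 0.57), Ccdc184 (2.20 ± 0.29), Nckap5l (2.11 ± 0.49), Hddc3 (1.85 ± 0.21), the cadherin gene Cdh18 (1.80 ± 0.32), the polycomb-associated gene Asxl3 (1.70 ± 0.34), the splicing helicase gene Dhx8 (1.69 ± 0.32), Chtf8 (1.69 ± 0.36), a gene of sister chromatid cohesion, and Ntn1 (1.66 ± 0.34), the gene of the axon guidance cue netrin 1. Rab6b, a gene of neuronal Golgi traffic, rose by 1.63 ± 0.44, and by 1.19 without wild-type replicate 1, whose ratio of -0.49 lay far below the other 3 at 1.08 to 1.44. Another pair of genes depended on single arrays. Tuba8, an alpha tubulin gene, rose by 2.44 ± 0.71 (adjusted p = 0.0185), and without wild-type replicate 4, whose ratio was -3.35, the change was 1.81 and did not pass (adjusted p = 0.0513). Zdhhc17, a palmitoyl transferase gene, rose by 1.83 ± 0.62 (adjusted p = 0.0372) and passed in 4 of 8 fits that leave out 1 array. It was lost without wild-type replicate 1 (1.30) or 4 (1.76) and without Cx32 null replicate 3 (1.71) or 4 (1.69), and with array weights (1.10).

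By the same rule, the 15 with the largest falls lay between -2.99 and -2.36. Neat1, the long RNA that scaffolds nuclear paraspeckles, had ratios of -1.43, 0.14 and -0.41 on 3 wild-type arrays and -3.65, -3.41, -3.04 and -3.66 in Cx32 null brain. Vps35, the core of the retromer that returns cargo from endosomes, had ratios of 2.67, 3.52 and 3.61 on 3 wild-type arrays and 1.20, 1.13, 0.39 and 0.50 in Cx32 null brain. Atg5, which is needed to build autophagosomes, had ratios of 2.57, 1.27, 0.66 and 0.89 in wild-type and -1.29, -1.16, -0.81 and -1.23 in Cx32 null brain. The groups of each gene lay apart by more than a log2 unit. The changes were -2.87 ± 0.53, -2.47 ± 0.34 and -2.47 ± 0.51 (adjusted p = 0.00222, 0.000402 and 0.0033), and -3.30, -2.76 and -2.06 without wild-type replicate 1.

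Gm12966 had the smallest adjusted p of the named genes (2.08e-06), with ratios of 3.57, 3.56, 3.14 and 2.87 in wild-type and 0.76, 0.56, 0.61 and 0.70 in Cx32 null brain. It was 6.17-fold lower, a change of -2.63 ± 0.19. Gcdh, a mitochondrial enzyme gene of lysine breakdown, changed by -2.90 ± 0.46, and Erf, a repressor of the ETS family, by -2.73 ± 0.49. Igfbp4, an insulin-like growth factor binding protein gene, changed by -2.37 ± 0.33, and Gstm6, a glutathione transferase gene, by -2.57 ± 0.41. Of genes known from liver, heart or muscle, Cyp2d9 changed by -2.99 ± 0.45 (-1.91 under cyclic loess), Plg, the plasminogen gene, by -2.36 ± 0.43, Fhl2 by -2.68 ± 0.38 and Pdlim5 by -2.43 ± 0.50. Tbata (-2.54), Capg (-2.79) and Actr3 (-2.62) complete the 15. All 15 passed in each of the 8 fits that leave out 1 array, as did the largest rises other than Tuba8 and Zdhhc17. Erf was lost (-1.36) where 2 of 4 values in each group sufficed, and Plg under cyclic loess (-1.40).

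**Figure D2:**
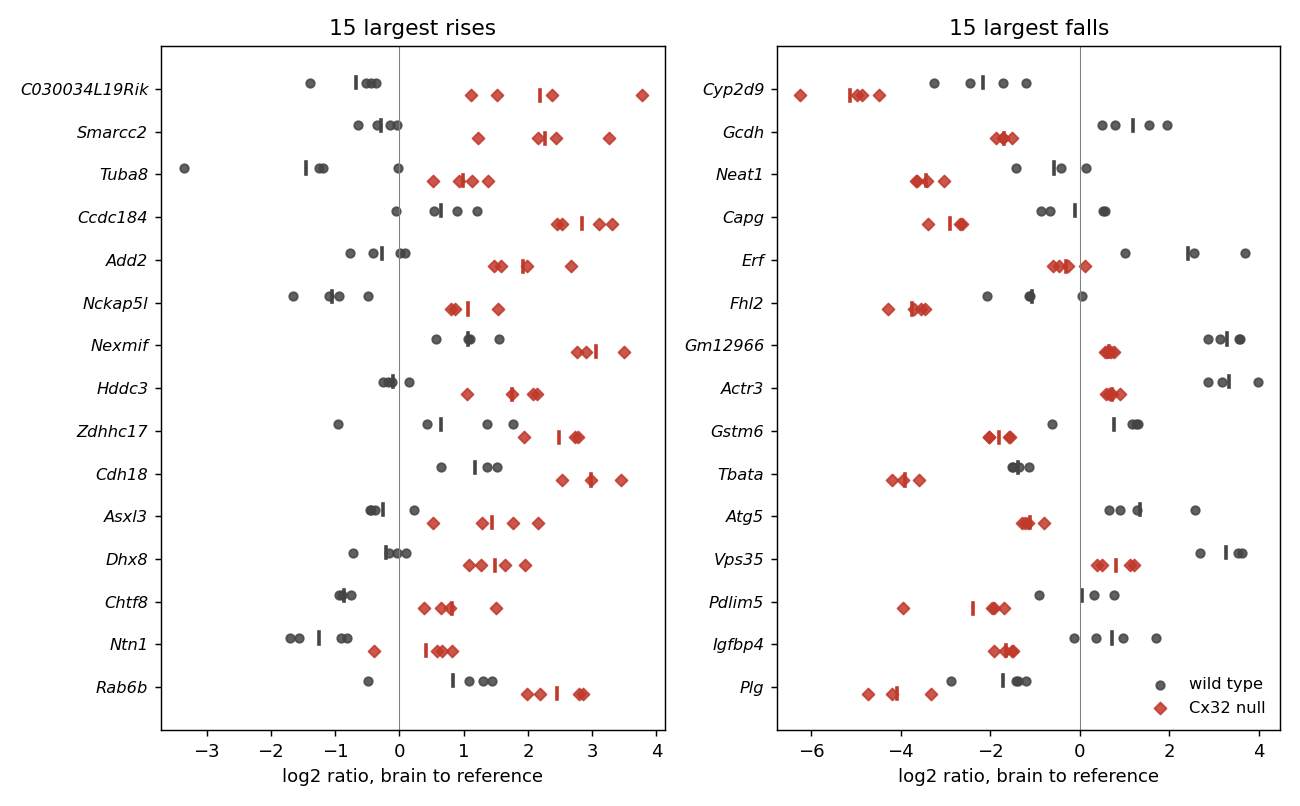
Log2 ratio of brain to reference for the named genes that changed most, 15 upwards and 15 downwards, with 1 point per array (grey circles wild type, red diamonds Cx32 null) and a bar at the group mean. The groups do not overlap in any of the 30 genes, which the rule of selection required. Wild-type points are spread more widely than Cx32 null points for most of the falls.

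Of 47 measured genes of axon guidance and growth, 14 rose (29.8%), 2 fell (4.3%) and 31 did not pass, and the median change was 0.46, against -0.03 over all transcripts. On leaving out wild-type replicate 1, 12 rose and 2 fell and the median was 0.28. Over all settings the list's median was 0.28 to 0.58. Ntn1 had ratios of -0.91, -1.56, -1.70 and -0.81 in wild-type and -0.40, 0.67, 0.58 and 0.81 in Cx32 null brain, where replicate 1 stood nearest to the wild-type arrays. Plxna1, which encodes a receptor of semaphorins, repellent cues for axons, had ratios of 0.13, 0.81, 0.95 and 1.05 in wild-type and 2.35, 2.02, 1.69 and 2.25 in Cx32 null brain. Dab1, which relays the reelin signal in migrating neurons, had ratios of 0.85, 1.47 and 1.16 on 3 wild-type arrays and 2.43, 2.29, 2.05 and 2.91 in Cx32 null brain. The groups were apart in all 3, with changes of 1.66 ± 0.34, 1.34 ± 0.24 and 1.26 ± 0.32 (adjusted p = 0.00292, 0.00162 and 0.00949).

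All 9 plexin genes were measured, a set chosen after the values were seen. Plxna1, Plxna3 (0.88), Plxnb3 (0.75) and Plxnc1 (0.73) rose and 0 fell, and the same counts held without wild-type replicate 1. Plxnc1 was lost without wild-type replicate 2 (0.62) or 4 (0.64) and without Cx32 null replicate 3 (0.67) or 4 (0.67). The values of the other 5 ran from -0.05 for Plxna2 to 0.87 for Plxna4. On the side of cues and adhesion molecules, also chosen after their values were seen, the Slit receptor gene Robo1 rose by 1.16 ± 0.26, the ephrin receptor gene Epha8 by 1.16 ± 0.26 and the adhesion molecule gene Nrcam by 0.84. L1cam, an adhesion molecule gene of growing axons, rose by 0.71 ± 0.18 (adjusted p = 0.00894). Ncam1 rose by 1.23 ± 0.37 (adjusted p = 0.0217) but did not pass without wild-type replicate 1 (0.90) or Cx32 null replicate 1 (1.13). In the other direction, the semaphorin gene Sema4g changed by -0.66 ± 0.18 (adjusted p = 0.0157), but it was lost under quantile scaling (-0.23) and cyclic loess (-0.41) and with the 8 arrays fitted alone (adjusted p = 0.067). Dab1 was lost (0.66) where 2 of 4 values in each group sufficed, Nrcam under quantile scaling (0.66), and Plxnc1 with the 8 arrays fitted alone (adjusted p = 0.0678).

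Of 23 measured pan-neuronal genes, 2 rose, 3 fell and the median change was 0.03. Over all settings this median ran from -0.13 to 0.42, so its sign is not fixed. Besides L1cam and Ncam1, which are counted here too, Ina, an intermediate filament gene of neurons, changed by -0.70 ± 0.18 (adjusted p = 0.00988). Syt1, the calcium sensor gene of vesicle release, changed by -1.02 but was lost without wild-type replicate 2 (-0.83) or Cx32 null replicate 1 (adjusted p = 0.0513) or 4 (-0.94). Scg3, a gene of secretory granules, changed by -0.70 but was lost without wild-type replicate 1 (-0.49) or Cx32 null replicate 2 (-0.69), 3 (-0.69) or 4 (-0.68). Ina (-0.29), Syt1 (-0.64) and Scg3 (-0.29) did not pass under quantile scaling. Tubb3, a tubulin gene of young neurons, did not pass (-0.53).

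Genes of voltage-gated and potassium channels were higher in 8 of 26 cases (30.8%) and lower in 2, with a median change of 0.11. When wild-type replicate 1 was left out, 5 were higher and 1 was lower. The list's median ran from -0.04 to 0.32 over all settings, so its sign is not fixed. Kcns3, a modifier subunit of potassium channels, had ratios of -1.34, -0.98, -1.04 and -0.61 in wild-type and -0.19, -0.09, -0.16 and -0.09 in Cx32 null brain. Cacnb2, a calcium channel subunit gene, had ratios of -1.68, -0.92, -1.11 and -0.49 in wild-type and -0.28, -0.13, -0.31 and -0.25 in Cx32 null brain. In both genes the Cx32 null arrays agreed closely just above the highest wild-type array. The changes were 0.86 ± 0.18 and 0.81 ± 0.21 (adjusted p = 0.00403 and 0.0121). Kcnk6, a leak channel gene, changed by -0.90 ± 0.22 (adjusted p = 0.008).

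Synaptic genes were called in both directions. Of 20 vesicle cycle genes 6 fell (30.0%) and 3 rose, and their median of -0.43 became -0.04 without wild-type replicate 1, while 6 and 3 were again called. Sv2a, a vesicle protein gene, had ratios of 3.36, 3.18 and 3.72 on 3 wild-type arrays and 2.00, 1.86, 1.83 and 1.95 in Cx32 null brain, a change of -1.51 ± 0.37 (adjusted p = 0.00838). Syt11 changed by -1.32 ± 0.27 (adjusted p = 0.00339), and by -0.83 under quantile scaling. Slc32a1, the vesicle transporter gene of GABA and glycine, rose by 0.83 ± 0.21 (0.37 and not passing where all 4 values in each group were needed), and Erc1, a gene of the presynaptic active zone, by 0.82 ± 0.18. Among 10 genes of GABA and glycine signalling, Calb1, a calcium buffer of some inhibitory neurons, also rose (0.69 ± 0.17) and the receptor subunit gene Gabra3 fell (-0.69 ± 0.17). Gabra3 was lost under quantile scaling (-0.28) and cyclic loess (-0.44), and Calb1 passed at 0.45 where 2 of 4 values in each group sufficed. Of 14 genes of glutamate receptors and the postsynaptic density, 2 rose and 2 fell. Dlgap3, a scaffold gene, rose by 1.05 ± 0.17 (adjusted p = 0.000809).

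Genes of the second messengers that cross gap junctions were called about as often as all transcripts. Of 38 cyclic nucleotide genes 3 rose and 7 fell (18.4%), with a median of 0.02, and of 37 inositol phosphate and calcium genes 4 rose and 6 fell (16.2%), with a median of -0.23. Prkacb, a catalytic subunit of protein kinase A, the main effector of cyclic AMP, had ratios of 3.30, 2.74, 2.62 and 2.36 in wild-type and 1.79, 1.64, 1.55 and 1.55 in Cx32 null brain. Ppp3r1, the regulatory subunit of the phosphatase calcineurin, had ratios of 2.81, 2.50, 2.06 and 1.24 in wild-type and 0.31, 0.22, 0.05 and 0.28 in Cx32 null brain. The groups were well apart in both, and the changes were -1.12 ± 0.21 and -1.94 ± 0.28 (adjusted p = 0.00223 and 0.000511). The catalytic subunit gene of calcineurin, Ppp3cb, fell as well (-0.85 ± 0.20), but not under quantile scaling (-0.43) or where only these 2 groups had to have values (-0.36). Prkacb passed at -0.68 under quantile scaling.

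Of the 6 protein kinase A subunit genes, all measured, 3 fell (Prkacb, Prkar2a at -0.84 and Prkar1a at -0.67) and 0 rose, and Prkaca lay at -0.02. Of 7 measured G protein alpha subunit genes 4 fell and 0 rose (3 and 0 without wild-type replicate 1). Gnai2, which inhibits adenylyl cyclase, changed by -1.33 ± 0.31 and Gnai1 by -0.86 ± 0.24. These subsets were chosen after the values were seen. Creb1, the transcription factor gene at the end of the cyclic AMP pathway, rose by 0.98 ± 0.22 (adjusted p = 0.00524), as did Pde8a, a cyclic AMP phosphodiesterase gene (0.79 ± 0.21). Leaving out wild-type replicate 3 ended the calls of Pde8a (0.60) and Gnai1 (-0.69). Prkar2a was lost without wild-type replicate 1 (-0.55) or 2 (-0.86) and without Cx32 null replicate 1 (-0.62) or 2 (-0.94). Under quantile scaling both Prkar2a (-0.56) and Prkar1a (-0.46) were lost.

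At neighbouring junctions, 9 of 38 adherens and tight junction genes fell (23.7%) and 5 rose, with a median of -0.04. Without wild-type replicate 1, 6 fell and 3 rose. Besides Ctnnb1, Jup, the gene of plakoglobin, a close relative of beta-catenin, had ratios of 0.44, 0.50, 0.44 and -0.06 in wild-type and -0.59, -0.83, -0.77 and -0.55 in Cx32 null brain. It changed by -1.02 ± 0.17 (adjusted p = 0.00137), and Ctnnal1, an alpha-catenin-like gene, by -1.05 ± 0.24 (-0.66 and not passing where all 4 values in each group were needed). Pard6b, a polarity gene, and Cldn15, a claudin gene, rose by 0.83 ± 0.23 and 0.79 ± 0.19. Among 32 Wnt genes 4 rose and 3 fell, and among 50 genes of Notch, hedgehog, BMP and FGF signalling 7 rose and 8 fell, shares near those over all transcripts. Smad4, the common mediator of BMP and TGF beta signals, changed by -1.43 ± 0.29, and Id2, a target of BMP signals, by -1.48 ± 0.40 (-0.92 without wild-type replicate 1). With the 8 arrays fitted alone Id2 missed the threshold (adjusted p = 0.0514). The hedgehog effector gene Gli2 rose by 0.90 ± 0.20 and Spry4, a feedback inhibitor of FGF signals, by 1.03 ± 0.22.

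Of 14 measured genes of chaperones that fold proteins in the endoplasmic reticulum, 8 fell and 6 did not pass, and 6 hold a shared promoter motif. The unfolded protein response raises such genes through the endoplasmic reticulum stress element, to which NF-Y and ATF6 bind, and whose letters are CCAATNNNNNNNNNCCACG. Both strands of the 250 bases before each gene start were searched in 32851 RefSeq promoter windows (GRCm38.p6), of which 37 held a match, or 0.113%. A match is a description of the letters and not a bound site. The 5 windows below are shown because they belong to 5 of the 6 chaperone genes with the element; the sixth, Dnajc3, which is not shown, did not pass (-0.50, adjusted p = 0.0554). Capitals mark its fixed letters on either strand.

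Hspa5: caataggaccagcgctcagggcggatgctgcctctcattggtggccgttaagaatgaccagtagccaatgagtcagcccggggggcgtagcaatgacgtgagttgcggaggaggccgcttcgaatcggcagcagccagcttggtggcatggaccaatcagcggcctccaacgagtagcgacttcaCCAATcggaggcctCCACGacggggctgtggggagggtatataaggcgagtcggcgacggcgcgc
Pdia6: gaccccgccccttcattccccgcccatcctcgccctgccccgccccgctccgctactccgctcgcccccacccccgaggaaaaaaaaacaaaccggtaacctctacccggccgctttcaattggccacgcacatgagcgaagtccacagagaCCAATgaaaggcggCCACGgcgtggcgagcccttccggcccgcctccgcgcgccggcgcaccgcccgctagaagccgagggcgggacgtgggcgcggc
Calr: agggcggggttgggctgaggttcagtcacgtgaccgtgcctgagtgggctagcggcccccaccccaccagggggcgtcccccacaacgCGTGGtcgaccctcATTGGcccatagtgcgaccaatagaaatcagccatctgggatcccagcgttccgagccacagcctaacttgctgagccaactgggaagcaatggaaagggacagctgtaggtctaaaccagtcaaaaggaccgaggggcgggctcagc
Hsp90b1: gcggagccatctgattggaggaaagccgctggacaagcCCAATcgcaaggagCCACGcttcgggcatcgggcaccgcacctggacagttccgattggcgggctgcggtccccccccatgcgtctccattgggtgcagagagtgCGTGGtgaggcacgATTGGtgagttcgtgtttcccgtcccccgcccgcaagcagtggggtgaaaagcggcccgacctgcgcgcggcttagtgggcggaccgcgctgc
Canx: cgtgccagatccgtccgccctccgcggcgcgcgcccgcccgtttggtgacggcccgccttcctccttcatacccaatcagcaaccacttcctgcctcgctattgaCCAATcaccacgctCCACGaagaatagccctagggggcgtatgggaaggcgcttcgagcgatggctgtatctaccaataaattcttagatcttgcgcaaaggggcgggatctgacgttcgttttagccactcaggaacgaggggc

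The windows lie at chr2:34771840-34772089 on the + strand (Hspa5), chr12:17266339-17266588 on the + strand (Pdia6), chr8:84846932-84847181 on the - strand (Calr), chr10:86705445-86705694 on the - strand (Hsp90b1) and chr11:50325674-50325923 on the - strand (Canx), and each ends at the base before the start of the gene. Hsp90b1 holds 2 matches, and the others 1 each. The first base of the match lies 65 bases before the start in Hspa5, 98 in Pdia6, 162 in Calr, 212 and 107 in Hsp90b1 and 145 in Canx.

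Hspa5, the gene of BiP, the main chaperone and stress sensor of the compartment, had ratios of 1.67, 0.25, -0.75 and 0.16 in wild-type and -0.91, -1.27, -1.15 and -1.06 in Cx32 null brain. Pdia6, a disulfide isomerase gene, had ratios of 3.05, 1.33, 0.55 and 0.91 in wild-type and -0.84, -0.84, -0.74 and -0.85 in Cx32 null brain. Calr, the gene of the lectin chaperone and calcium store calreticulin, had ratios of -0.63, 0.91, 0.29 and 0.39 in wild-type and -0.82, -0.80, -0.79 and -0.89 in Cx32 null brain. The Cx32 null arrays lay within 0.4 log2 units of each other in each gene and below all wild-type arrays, of which replicate 1 was the highest for Hspa5 and Pdia6 and the lowest for Calr. The changes were -1.43 ± 0.35, -2.28 ± 0.42 and -1.06 ± 0.25 (adjusted p = 0.00759, 0.00191 and 0.0059), and -0.99, -1.75 and -1.35 without wild-type replicate 1, all of which passed.

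Hsp90b1, the gene of GRP94, had ratios of 1.40, -0.45, -0.78 and 0.19 in wild-type and -0.46, -0.67, -1.24 and -1.24 in Cx32 null brain. The groups overlapped. Its change of -0.996 ± 0.33 (adjusted p = 0.035) was -0.56 and did not pass without wild-type replicate 1 (adjusted p = 0.0852), nor without wild-type replicate 4 (-0.96) or Cx32 null replicate 2 (-1.07), 3 (-0.88) or 4 (-0.88). It was lost with the 8 arrays fitted alone as well (adjusted p = 0.122). Canx, the gene of calnexin, did not pass, at -0.18 ± 0.32, and its ratio of 2.36 on wild-type replicate 1 stood above the other 7 arrays at 0.43 to 1.13. Of 14 measured chaperone genes of the compartment, a set chosen after the values were seen, 8 fell and 0 rose, and the median change was -0.79; without wild-type replicate 1, 5 fell and 0 rose and the median was -0.53. Of these 14 genes 6 hold the motif, and so do 4 of the 8 that fell.

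Over all genes, 18 of 6924 named genes tested and matched to a window hold the motif. Of these 6 fell (33.3%, against 14.3% of all transcripts and 15.3% of all named genes) and 1 rose, with a median change of -0.26. Without wild-type replicate 1 the counts were 5 and 1. The 18 include 6 chaperones of the set chosen after the values were seen, which gave 4 of the 6 falls. The share that fell is therefore not independent of that choice, and no excess of falls among motif genes is read from it. Outside that set, 2 motif genes fell, 1 rose and the others did not pass. The 2 genes that fell and are not chaperones of the set above were Creld2 (-1.16 ± 0.35) and Syvn1 (-0.82 ± 0.23), a ubiquitin ligase gene that clears misfolded proteins, and the gene that rose was Derl3 (0.95 ± 0.23), of the same disposal pathway. Creld2 was lost without Cx32 null replicate 3 (-1.13) or 4 (-1.10), and with the 8 arrays fitted alone (adjusted p = 0.0847). A list of 18 genes is small, and other motifs were not compared with this one.

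**Figure D3:**
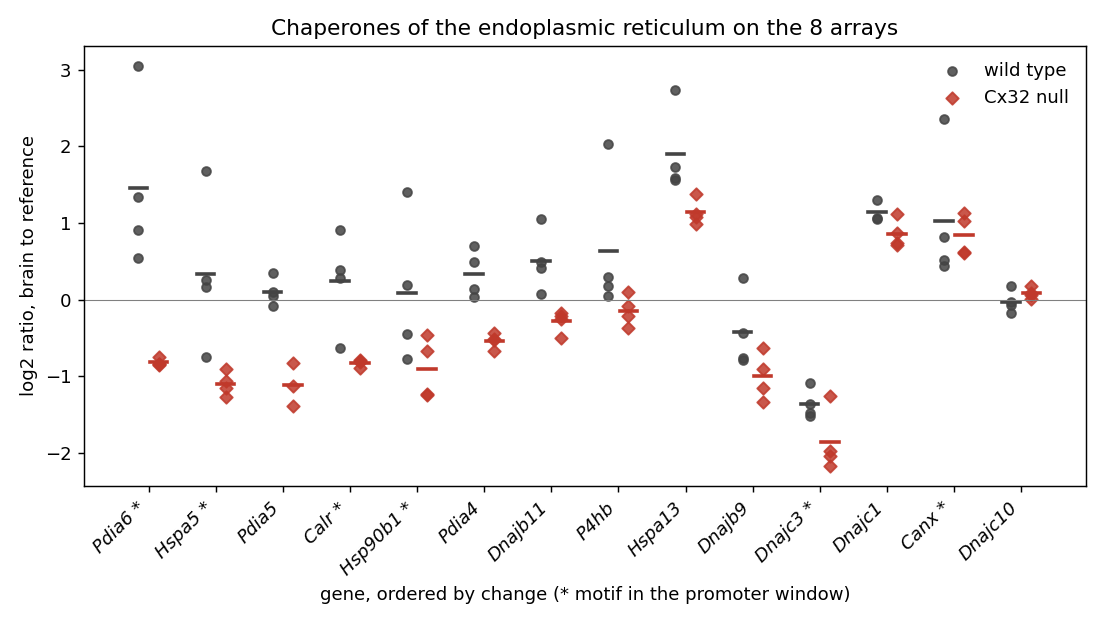
Log2 ratio of brain to reference for 14 chaperone genes of the endoplasmic reticulum, ordered by change, with 1 point per array (grey circles wild type, red diamonds Cx32 null) and a bar at the group mean; a star marks a gene whose promoter window holds the motif. The spread of the Cx32 null points differs between genes, from -0.85 to -0.74 in Pdia6 to -2.17 to -1.25 in Dnajc3.

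Downstream of the endoplasmic reticulum, 23 of 116 genes of vesicle coats, Golgi and endosomes fell (19.8%) and 7 rose (6.0%), with a median of -0.16. Without wild-type replicate 1, 20 fell and 7 rose. Tmed2, a cargo receptor gene of early secretion, had ratios of 1.92, 1.05, 0.61 and 1.13 in wild-type and -0.23, -0.35, -0.26 and -0.36 in Cx32 null brain. Cltc, the heavy chain of clathrin, had ratios of 3.20, 2.32, 2.43 and 1.68 in wild-type and 1.05, 1.15, 0.95 and 1.09 in Cx32 null brain. The groups were apart in both, with changes of -1.47 ± 0.26 and -1.35 ± 0.28 (adjusted p = 0.00148 and 0.00327). Of 18 measured genes of the COPI and COPII coats, which carry cargo between the endoplasmic reticulum and the Golgi, 8 fell and 0 rose (5 and 0 without wild-type replicate 1), with Copa at -1.24 ± 0.29. This subset was chosen after the values were seen. Stx6, a fusion protein gene of the Golgi, rose by 0.91 ± 0.25 and Golga5, a golgin gene, by 0.73 ± 0.17.

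Translation factor genes showed the largest share of falls among the lists of 10 or more members: 22 of 52 fell (42.3%) and 2 rose (3.8%), and the median change was -0.44. The chaperone list was next, with 26 of 62 lower (41.9%), and 18 lower without wild-type replicate 1. Leaving out wild-type replicate 1, 19 translation factor genes fell and 2 rose, and over all settings the median was -0.51 to -0.33. Eef2, which moves the ribosome along the messenger RNA, had ratios of 2.54, 2.70, 2.33 and 1.60 in wild-type and 0.71, 0.53, 0.13 and 0.29 in Cx32 null brain. Pabpc1, which binds poly(A) tails, had ratios of 3.12, 1.67, 1.03 and 0.76 in wild-type and -0.17, -0.02, -0.41 and -0.66 in Cx32 null brain. Both genes had wild-type values spread over more than a log2 unit, and Cx32 null values below them that lay closer together. The changes were -1.88 ± 0.32 and -1.96 ± 0.42 (adjusted p = 0.00135 and 0.0043), and -1.80 and -1.47 without wild-type replicate 1.

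Gfm1, an elongation factor gene of mitochondria, changed by -1.56 ± 0.29 (adjusted p = 0.00195). Of 10 measured subunit genes of eIF3, the scaffold of translation initiation, 7 fell and 0 rose (6 and 0 without wild-type replicate 1), a subset chosen after the values were seen. Its members ran from -1.45 for Eif3h to 0.07 for Eif3j1. Eif3h has no spot outside the blocks out of step, and its call was lost with the 8 arrays fitted alone (adjusted p = 0.0594). The 2 genes that rose were Paip1, a partner of Pabpc1 (0.87 ± 0.18), and Eif1b (0.62 ± 0.16).

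Among 105 splicing and RNA-binding genes, 21 were lower (20.0%) and 8 higher (7.6%), with a median of -0.10, and 15 fell and 8 rose without wild-type replicate 1. Genes of 3 large proteins of the spliceosome core were among the falls. Sf3b1, which recognises the branch point, had ratios of 2.52, 2.84, 2.88 and 2.34 in wild-type and 0.92, 0.88, 0.64 and 0.84 in Cx32 null brain, a wide gap with little spread in either group. Its change was -1.82 ± 0.18 (adjusted p = 1.96e-05). Snrnp200, the helicase that activates the spliceosome, changed by -1.75 ± 0.32, and Prpf8, its central scaffold, by -1.62 ± 0.34. Nova2, a splicing regulator of neurons, rose by 0.71 ± 0.18 (1.08 under quantile scaling; adjusted p = 0.0508 with the 8 arrays fitted alone), and Rbm15 by 0.82 ± 0.18.

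In the mitochondrial ribosome 12 of 56 genes fell (21.4%) and 4 rose, and without wild-type replicate 1 the counts were 8 and 6 and the median turned from -0.06 to 0.11. Among 108 ubiquitin conjugation genes 16 fell (14.8%) and 8 rose (7.4%), near the share of falls over all transcripts. Ube2s, an E2 enzyme gene of mitosis, changed by -1.47 ± 0.22 (adjusted p = 0.000714) and Stub1, a ligase gene that works with chaperones, by -1.25 ± 0.22. Cbl, a ligase gene for receptor tyrosine kinases, rose by 1.29 ± 0.31. Of 42 proteasome genes 16 fell (38.1%) and 1 rose, and of 25 genes of glucose uptake and glycolysis 10 fell (40%) and 0 rose. Aldoa, an aldolase gene, had ratios of 0.60, 0.56, 0.16 and 0.23 in wild-type and -0.90, -0.97, -1.22 and -1.31 in Cx32 null brain, and changed by -1.49 ± 0.30. Their medians moved from -0.58 to -0.27 and from -0.84 to -0.42 when wild-type replicate 1 was left out.

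**Figure D4:**
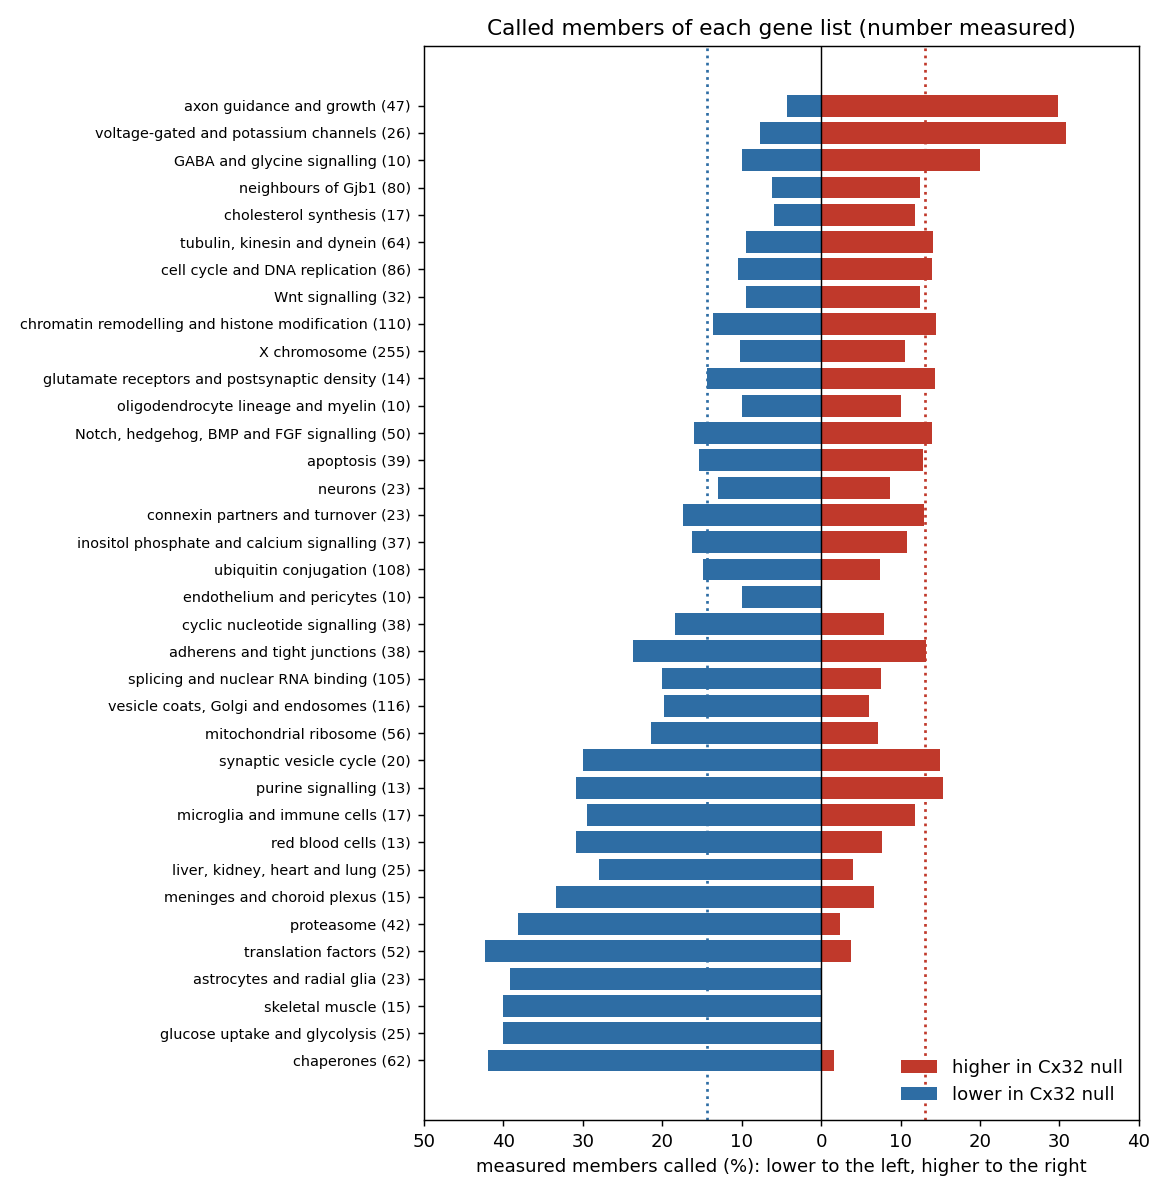
Percentage of the measured members of each list with at least 10 members that were called higher (right, red) or lower (left, blue) in Cx32 null brain; the number measured is in parentheses and dotted lines mark the shares over all transcripts, 13.1% and 14.3%. Axon guidance and channel genes lie at the top with 29.8% and 30.8% higher, and chaperone, glycolysis, muscle, astrocyte and translation factor genes at the foot with 39.1% to 42.3% lower.

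Chromatin genes were called as often as all transcripts, 16 of 110 higher (14.5%) and 15 lower (13.6%), with a median of -0.05. Without wild-type replicate 1, 13 were higher and 11 lower. Kat6b, a histone acetyltransferase gene of brain development, had ratios of -0.42, 0.02, 0.32 and -0.32 in wild-type and 1.44, 0.90, 1.15 and 1.04 in Cx32 null brain. Kat7, an acetyltransferase gene of the same family, had ratios of 0.44, 1.73, 1.11 and 1.96 in wild-type and -0.06, -0.01, -0.15 and 0.04 in Cx32 null brain. The groups were apart in both genes, upwards in one and downwards in the other, with changes of 1.23 ± 0.28 and -1.35 ± 0.30 (adjusted p = 0.00576 and 0.00484). Among 7 acetyltransferase genes chosen after the values were seen, 4 rose and 2 fell (3 and 1 without wild-type replicate 1). Ep300, the gene of the coactivator p300, rose by 0.92. Kdm1a, a histone demethylase gene, and Suz12, a subunit of Polycomb repressive complex 2, changed by -1.25 ± 0.30 and -1.23 ± 0.28.

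Among 18 measured BAF subunit genes 3 rose and 3 fell (3 and 1 without wild-type replicate 1). Beside Smarcc2 at 2.56, the change of its ATPase Smarca4 was 0.65 ± 0.21 and was lost without wild-type replicate 1 (0.44) or Cx32 null replicate 1 (0.66), 2 (0.58) or 4 (0.64), and with the 8 arrays fitted alone (adjusted p = 0.081). Actl6a, the subunit of dividing progenitors that Actl6b replaces in neurons, changed by -1.08 ± 0.24, while Actl6b lay at 0.18 and did not pass. Of the 9 CHD remodeller genes, 3 rose and 1 fell (1 and 1 without wild-type replicate 1), with Chd7, which is mutated in CHARGE syndrome, at 1.17 ± 0.28. Both subsets were chosen after the values were seen.

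Among 86 cell cycle genes 12 were higher (14%) and 9 lower (10.5%), below the share called over all transcripts. Skp2, a ubiquitin ligase subunit that lets cells enter S phase, had ratios of -0.81, -0.77, -0.75 and -0.56 in wild-type and 0.05, 0.12, 0.07 and 0.70 in Cx32 null brain, and rose by 0.95 ± 0.17 (adjusted p = 0.00182). Ccne1, the gene of cyclin E1, rose by 0.89 ± 0.22. Cul1, the scaffold of the ligase that holds Skp2, changed by -1.07 ± 0.26. Of 39 apoptosis genes 5 rose and 6 fell. Bid, a killer protein gene that links death receptors to mitochondria, had ratios of -1.27, -1.04, -0.94 and -0.71 in wild-type and 0.12, 0.32, 0.05 and 0.23 in Cx32 null brain, and rose by 1.17 ± 0.19 (adjusted p = 0.00107). Mdm4 rose (0.92 ± 0.21) and Mdm2 fell (-1.05 ± 0.21); both encode inhibitors of p53.

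Among 64 genes of tubulins, kinesins and dyneins 9 rose and 6 fell. Kif9, a kinesin gene of cilia and flagella, changed by -2.13 ± 0.35, and Kif3b, a subunit of kinesin-2, by -1.30 ± 0.32 (-0.28 and not passing where only these 2 groups had to have values), while Tubgcp4, of the complex that starts microtubules, rose by 0.88 ± 0.17 (1.35 where all 4 values in each group were needed). Of 17 genes of cholesterol synthesis and export, a pathway that myelin draws on, 2 rose and 1 fell. Fdft1, which makes squalene, had ratios of 2.67, 2.74, 2.36 and 0.80 in wild-type and 0.33, 0.20, 0.32 and 0.39 in Cx32 null brain, with a change of -1.83 ± 0.43 (adjusted p = 0.00626). Hmgcs1, an early enzyme gene of the same pathway, rose by 0.94 ± 0.21. Among 13 purine signalling genes 2 rose and 4 fell. None of the 6 passed in all 8 fits that leave out 1 array.

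Markers of other cell types were called as well. Of 17 microglia and immune genes 5 fell and 2 rose, with a median of -0.46. Irf8, a transcription factor gene of microglia, changed by -1.03 ± 0.20 and the complement gene C1qb by -1.03 ± 0.23, whereas Itgam, an integrin gene of the same cells, rose by 0.95 ± 0.27, a call lost with the 8 arrays fitted alone. Of 15 genes of meninges and choroid plexus 5 fell and 1 rose. Aqp1, a water channel gene of the choroid plexus, changed by -1.36 ± 0.21 (adjusted p = 0.000713), and Ptgds, a prostaglandin synthase gene of the leptomeninges, by -1.65 ± 0.41. Of 13 red blood cell genes 4 fell, with Slc4a1 at -1.10 ± 0.18, and 1 rose (2 and 1 without wild-type replicate 1). Of 10 endothelial genes Ly6e alone passed (-1.29 ± 0.32). Of 15 skeletal muscle genes 6 fell and 0 rose, with a median on the arrays of -2.10 to -1.38 in wild-type and -2.96 to -2.18 in Cx32 null brain. Of 25 liver, kidney, heart and lung genes 7 fell and 1 rose (6 and 1 without wild-type replicate 1). The array medians given at the start do not overlap between the groups. Over all settings, however, the median change of this list ran from -0.86 to 0.19, so its sign is not fixed. The part of other tissue in the changes of brain genes was not tested.

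Genes near Gjb1 were listed because they share its stretch of the X chromosome. Of the 80 nearest measured genes 10 rose and 5 fell, or 18.8%, below the 27.3% of all transcripts. Over 255 measured genes of the chromosome, 27 rose and 26 fell, or 20.8%. Beside Nexmif, Plxna3 rose (0.88 ± 0.23) and Tnmd rose by 1.02 ± 0.24, while Fndc3c1 changed by -1.08 ± 0.29 (adjusted p = 0.0503 with 7 arrays fitted alone, wild-type replicate 1 left out). Xist, the RNA of the inactive X chromosome in females, differed by -0.05 ± 0.23 and the Y-linked Eif2s3y by -0.05 ± 0.32. Values on the 8 arrays lay between -0.38 and 0.55 for Xist and between -0.38 and 0.97 for Eif2s3y. The sex of the samples was not tested. Of 6 measured sex-linked genes Kdm6a alone passed (-0.93 ± 0.22), though not where all 4 values in each group were needed (-0.75). Eif2s3x passed without wild-type replicate 1 (-0.96), and Kdm5c in the fit without wild-type replicate 3 (-0.88).

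Far fewer transcripts passed when Cx32 null brain was set against the other lines. Against Cx43 null brain 12 transcripts passed (0.084%; 1303 at an unadjusted p under 0.05), and against Cx43 heterozygous brain 176 passed (1.23%; 1625 unadjusted). These contrasts use the same Cx32 null arrays as the contrast with wild type. Of the named genes, 2 passed against all 3 groups in 1 direction. Hddc3, which encodes a hydrolase of the HD domain family, had ratios of 1.05, 1.75, 2.14 and 2.08 in Cx32 null brain, -0.26 to 0.15 in wild type, -0.32 to 0.20 in Cx43 heterozygous and -0.17 to 0.17 in Cx43 null brain. Pglyrp1, a bactericidal protein gene of neutrophil granules, had ratios of -1.05, -2.13, -1.20 and -2.09 in Cx32 null brain, -0.45 to -0.02 in wild type, -0.45 to 0.11 in Cx43 heterozygous and -0.61 to 0.16 in Cx43 null brain. In both genes the 12 arrays of the other groups formed 1 cluster near 0 and the 4 Cx32 null arrays stood outside it.

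Hddc3 was higher by 1.85 ± 0.21 against wild type, 1.70 against Cx43 null and 1.86 against Cx43 heterozygous brain (adjusted p = 7.95e-05, 0.00294 and 0.000202). Pglyrp1 was lower, with changes of -1.44 ± 0.24, -1.42 and -1.51 (adjusted p = 0.0013, 0.0328 and 0.00391). A further pair passed against wild type and Cx43 null but not against Cx43 heterozygous brain. Evpl, the gene of envoplakin, a protein of cell contacts in epithelia, changed by -1.28, -0.94 and -0.22 (adjusted p = 0.000329, 0.0439 and 0.709). Tor3a, a gene of the torsin family of the endoplasmic reticulum, changed by -1.07, -1.03 and -0.29 (adjusted p = 0.00208, 0.0439 and 0.61), with 3 values in each of the wild-type and Cx32 null groups. Gja1 was 1.94 higher in Cx32 null than in Cx43 null and 1.47 higher than in Cx43 heterozygous brain (adjusted p = 0.0523 and 0.0608). Panx1 differed by 0.47 and -1.28 (adjusted p = 0.767 and 0.069), and Gjb5 by 0.15 and 0.26.

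**Figure D5:**
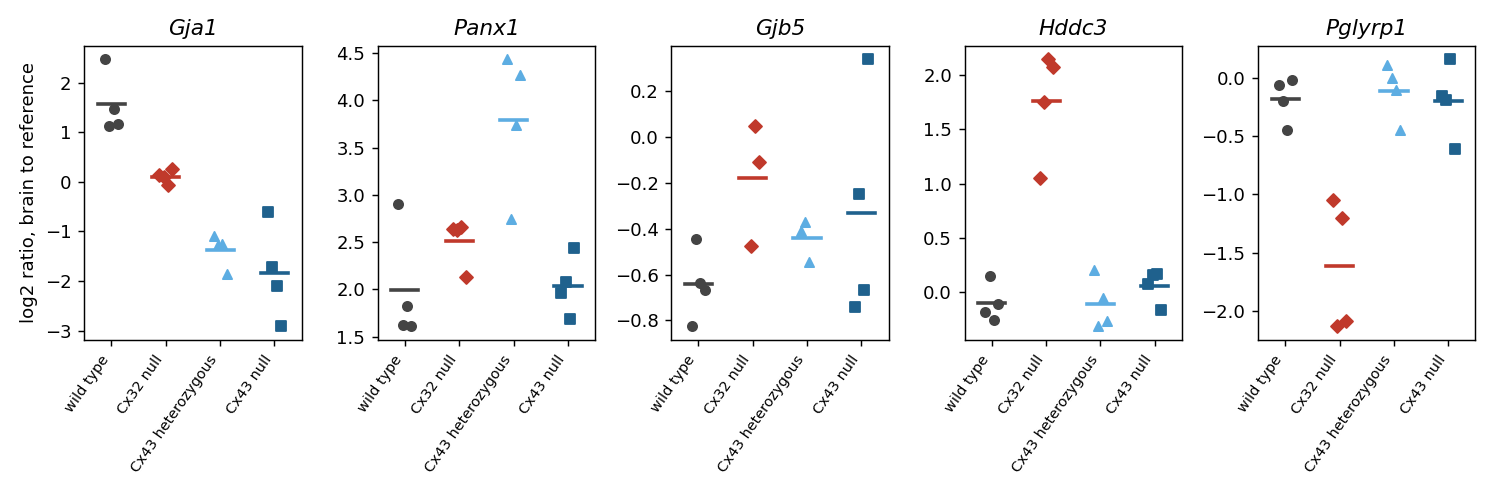
Log2 ratio of brain to reference for 5 genes on all 16 arrays (grey circles wild type, red diamonds Cx32 null, light blue triangles Cx43 heterozygous, dark blue squares Cx43 null), with a bar at the group mean; each panel has its own axis. Hddc3 is at 1.05 to 2.14 in Cx32 null brain and at most 0.20 in the other groups, and the mean of Gja1 in Cx32 null brain lies between those of wild type and the Cx43 lines.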

How the data were processed

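RNA from 16 neonatal mouse brain samples was hybridised against 1 reference pool on 2-colour cDNA arrays. The values are the series' table of log ratios as deposited by the authors, taken as log2, with 1 column per sample; how the authors corrected background and normalised the channels is not given in the sources used here. Of 28704 spots, 18511 carried 1 gene symbol (18267 updated by gene identifier), 937 several and 9256 none. Each array was centred on its median, spots with at least 3 of 4 values in every group were kept (19951), and spots of 1 symbol were averaged, leaving 14292 transcripts (8654 named genes and 5638 unnamed spots). Group means of all 16 arrays were fitted with limma 3.58.1 in R 4.3.3 (lmFit, eBayes), so that the 4 groups share 1 estimate of the spread, and every adjusted p is limma's moderated test with Benjamini-Hochberg adjustment over all transcripts. A transcript passed, or was called, at an adjusted p under 0.05. On data simulated for this comparison and these 14292 transcripts, 52 of 100 changes of 1 log2 unit and 97 of 100 of 2 log2 units were recovered, with 6 false calls among 155. These counts describe the simulated data only. They give no rate of false calls for the real arrays, where 3908 transcripts passed and wild-type replicate 1 stood apart. That rate was not tested.

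The members and gene lists were chosen with earlier results of these data known. The rule picked the measured connexins, oligodendrocyte, Schwann cell and sex-linked genes, and those that differ from all 3 other groups. It also picked the 15 largest rises and 15 largest falls whose groups did not overlap and that have no spot in a block out of step. Every other list gave up to 3 passing genes in each direction. Not all of these list genes are described above. Some of those left out passed in few of the 8 fits that leave out 1 array, such as Nsf and Scn2b in 2 and Cdt1 in 1. Genes outside the rule are said to be chosen after their values were seen. Alternatives were other scalings, filters and samples in the fit, leaving out each array, and the replicate number as a block. The labels of wild-type replicate 3 name replicate 2 in 1 field, so a fit also counted both as 1 sample (3372 transcripts passed). The 3 settings that leave out blocks of spots out of step or wild-type replicate 1 were chosen after seeing the data. The number of arrays limits the precision.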

Additional observations from a re-analysis of the deposited data

Results flagged for a closer look

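In 174 groups of 4 values checked, 16 held a value far from the other 3, and chance alone gives about 1 in 20. Wild-type replicate 1 accounts for many of them. Its correlation with the median of the other arrays was 0.637, against 0.83 to 0.862 for the other wild-type arrays. On the same array the log2 ratio of C030034L19Rik was -1.39 (others -0.52 to -0.37), of Plg -2.88 (others -1.43 to -1.21), of Panx1 2.91 (others 1.61 to 1.83), of the X-linked helicase gene Ddx3x 3.06 (others 1.24 to 1.52) and of Eif2s3x -0.49 (others 1.62 to 1.84). The median of the proteasome genes was 1.33 there (others 0.41 to 0.53), and that of the liver, kidney, heart and lung genes -2.06 (others -3.46 to -3.32).

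On wild-type replicate 4, Asxl3 had a ratio of 0.23 (others -0.46 to -0.38) and Gstm6 of -0.61 (others 1.16 to 1.29). Among Cx32 null arrays, Pdlim5 was at -3.95 on replicate 1 (others -1.96 to -1.69) and Panx1 at 2.13 on replicate 4 (others 2.63 to 2.66). The median of the connexin and pannexin genes was 1.38 on replicate 1, where Gjb5 has no value (others 0.05 to 0.27). On replicate 4 the median of the Notch, hedgehog, BMP and FGF genes was 0.52 (others 0.26 to 0.27) and that of the liver, kidney, heart and lung genes -5.13 (others -4.21 to -4.20). On replicate 3 the median of the splicing genes was 0.48 (others 0.62 to 0.63).

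The contrast of Cx32 null with Cx43 null brain, a direct test of the difference between these lines, passed for 4 named genes: Hddc3 at 1.70, Evpl at -0.94, Pglyrp1 at -1.42 and Tor3a at -1.03.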

How the results depend on the processing

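Of 203 genes picked by rule 185 passed. Of these, 112 kept their direction and side of the threshold under every one of the 23 settings in which they could be tested. A filter that removed a gene did not count against it. When each array was left out in turn, 134 kept both. None of the 185 changed sign; 43 were lost with the 8 arrays fitted alone and 30 without wild-type replicate 1. The count against wild type was 3908, 2256 with the 8 arrays alone, 6339 with array weights and 2730 to 4573 leaving out each array. Of transcripts called against wild type, 12 also passed against Cx43 null brain. That count was 36 under quantile scaling, 21 under cyclic loess or with at least 2 of 4 values, 5 with all 4 values, 798 with array weights, 54 without wild-type replicate 1 and blocks out of step, and 3 to 57 leaving out each array. Against Cx43 heterozygous brain 60 passed, 102 under quantile scaling, 36 with all 4 values, 443 with array weights, 104 without wild-type replicate 1 and blocks out of step, and 21 to 92 leaving out each array. The cause of these shifts was not tested. No pairing of samples by number was seen, though this check cannot exclude it. Correlations of deviations for numbers 1 to 4 were 0.155, -0.043, -0.047 and 0.033, and those of unlike numbers ran from -0.225 to 0.241. The replicate block gave 3844 transcripts, kept 178 of the 185 genes and left 5 against Cx43 null. The median SD of wild type fell from 0.393 to 0.257 without replicate 1.

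Sign changes were seen in genes that did not pass: Car2 at 0.019 under cyclic loess, Tspan2 at 0.025 with all 4 values, and Trf at 0.25 under quantile scaling and 0.704 under cyclic loess. Cryab was at 0.106 under cyclic loess, 0.121 with array weights and -0.959 to 0.318 leaving out each array. Qdpr was at 0.211 with array weights, 0.199 in each fit without wild-type replicate 1, and -0.229 to 0.199 leaving out each array. Ngfr was at 0.035 as deposited, 0.026 under quantile scaling, 0.03 in each fit without wild-type replicate 1, and -0.107 to 0.03 leaving out each array. Xist was at 0.029 as deposited and -0.238 to 0.128 leaving out each array. Eif2s3y was at 0.035 as deposited, 0.025 under quantile scaling, 0.306 with at least 2 of 4 values, 0.49 with array weights, 0.2 in each fit without wild-type replicate 1, and -0.25 to 0.2 leaving out each array. Of 897 list medians 822 moved by less than the spread.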
